A study of Mus musculus with 24 samples.

Results

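Primary vascular smooth muscle cells (VSMCs) loaded with cholesterol were compared between 48 h and 24 h of loading, over the 6 RNA libraries of those conditions among the 24 samples of the series (14 RNA libraries, and 10 libraries of chromatin and its input). The cells came from the thoracic aorta of C57BL/6J mice. They were grown as sub-confluent cultures at low passage in DMEM with 10% FBS. Loaded cells received Chol:MβCD at 20 µg/ml of the complex, which is cholesterol carried by methyl-β-cyclodextrin (a ring-shaped sugar used to make sterols soluble), in medium with 0.2% BSA. There were 3 libraries at 24 h and 3 at 48 h, described by the study as biological triplicates, and all were used. Control cells, kept in 0.2% BSA without the complex, gave 3 libraries at 24 h and 2 at 48 h (replicates 2 and 3), and they served here only as a reference for time in culture and for sequencing depth. Another 3 control libraries at 0 h entered the fit for its estimate of spread. The study kept replicate 1 of these out of its comparison with cells in vivo, as it did not cluster with its replicates. Since the carrier was given only together with the sterol, effects of the cholesterol and of the cyclodextrin cannot be told apart. Nothing in a bulk culture separates more cells in a state from more RNA per cell.

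Smooth muscle cells that take up cholesterol esterify and store it, lose contractile transcripts and can acquire foam cell features in the arterial wall. Free sterol in the membrane of the endoplasmic reticulum (ER) shuts down the SREBP factors, which drive sterol synthesis and uptake, while oxysterols activate the LXR receptors, which drive efflux. Sterol in excess in the ER membrane is also a known trigger of the unfolded protein response. That response has an ATF6 and XBP1 arm, which raises chaperones and degradation factors of the ER, and a PERK and ATF4 arm, which raises Ddit3 (CHOP), Trib3 and amino acid genes. The comparison asks which of these programs moved between the first and the second day of loading.

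Levels are given as RPKM, tags per kilobase of gene body scaled to library size, after rescaling between libraries by the median of ratios. Because the kilobase counts introns, levels are compared only within a gene. Changes are log2 fold changes on the log2(RPKM + 1) scale, which understates the change of genes with low values. A gene was called at a Benjamini-Hochberg adjusted p of 0.05 in limma, fitted over 10763 genes with more than 70 tags in at least 1 library. Libraries at 24 h were deeper than those at 48 h, with 7094019 to 7590858 tags in loaded cells at 24 h and 3633899 to 4968432 at 48 h, against 6759209 to 7351678 and 3836761 to 4020137 in control cells. The name of the deposited table was read as keeping at most 1 tag per base position, which no label states for RNA, and such a limit would lower dense genes in deep libraries. Its part in the values was not tested, and genes of high tag density did read higher in the shallower 48 h libraries of both conditions. Over the 1588 genes with more than 0.3 tags per exonic base, the median change from 24 h to 48 h was 0.20 in loaded cells and 0.20 in control cells. In the 1062 genes with 0.01 to 0.03 tags per base, it was -0.047 and -0.034. Over the dense genes, the median of the difference between both changes was -0.010. For that reason many changes below are given beside the control change, the test of the difference between them, or the density curve. The density curve is a fit in which a smooth curve of change against tag density was removed from every library. A change given without them is not separated from time in culture and depth.

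**Figure D1:**
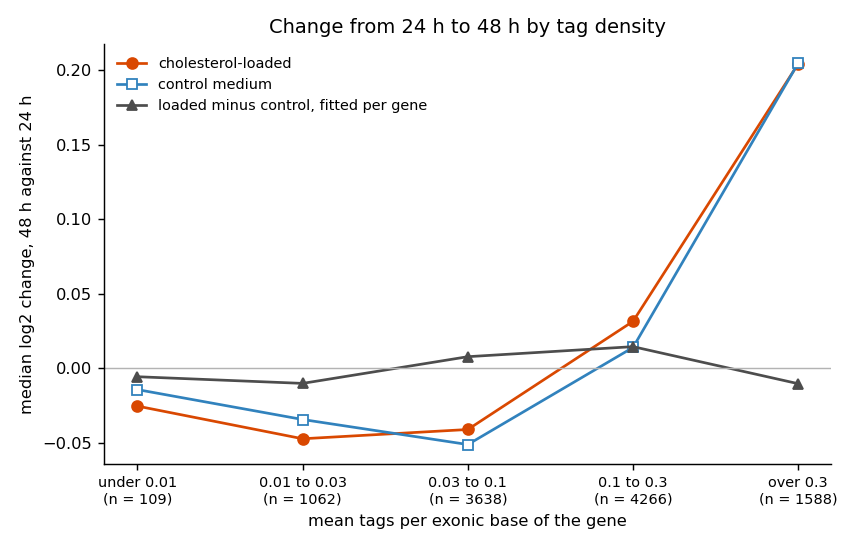
Median log2 change from 24 h to 48 h (y axis) by tags per exonic base (x axis, bins) for loaded cells, control cells and the difference between them. Loaded and control cells rise together, to 0.20 each in the densest bin, and the difference stays at -0.010 there.

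Among the loaded libraries, those at 48 h varied more, with a mean distance between libraries of 18.1 on the log2 scale against 7.91 at 24 h. Loaded 48 h replicates 1 and 2 deviated by transcript length in opposite directions. Each was set against the mean of the other loaded 48 h libraries. Over 2866 genes with less than 2 kb of exon, the median log2 value was 0.10 higher in replicate 1 and 0.10 lower in replicate 2. Over 1354 genes with more than 6 kb, it was 0.12 lower in replicate 1 and 0.086 higher in replicate 2. Replicate 3 had -0.005 and 0.040. The part of replicate 1 in the results was not tested beyond the fit without it. That fit called 2710 genes in loaded cells, against 2981 with all libraries. Smooth muscle identity was present in every library, with 9 of 10 markers tested and a summed RPKM of 150.8 to 158.3 at 24 h and 177.4 to 204.9 at 48 h in loaded cells. Control cells were higher at both times, at 180.6 to 191.8 and 230.8 to 232.6. Of 15 macrophage markers 1 was tested and 6 were listed at 0 in all loaded libraries (Aif1, C1qa, C1qb, C1qc, Fcgr1 and Tyrobp). The sum over the 15 was 4.67 to 5.49 at 24 h and 8.61 to 9.33 at 48 h in loaded cells. In control cells it was 3.13 to 5.46 and 6.44 to 6.64, so it was higher at 48 h in both conditions. Endothelial markers summed to at most 1.07 in loaded cells and 1.62 in control cells at 24 h. Of 9 fibroblast markers 3 were tested and Tcf21 was listed at 0 in all loaded libraries. Their sum was 8.91 to 9.09 at 24 h and 9.55 to 11.98 at 48 h in loaded cells, and 9.04 to 9.40 then 12.64 to 12.68 in control cells.

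From 24 h to 48 h of loading, ER chaperones, ER-associated degradation, interferon-stimulated genes and sterol synthesis enzymes rose, while genes of mitosis and DNA replication fell. In loaded cells 1591 genes (14.8% of those tested) were higher at 48 h and 1390 (12.9%) were lower. In control cells 250 (2.32%) were higher and 307 (2.85%) were lower, with 1 library fewer. This control count of 557 was the least stable, at 38 to 1180 when 1 library was left out (38 without control 48 h replicate 3 and 1180 without loaded 48 h replicate 1). The difference between the changes was positive in 298 genes (2.77%) and negative in 387 (3.6%). Of the 1591 genes that rose with loading time, 254 had a positive difference called, 125 also rose in control cells and 18 fell there. Of the 1390 that fell, 337 had a negative difference called, 127 also fell in control cells and 29 rose. With the density curve removed, 1346 genes (12.6%) were higher and 1406 (13.2%) lower in loaded cells, of which 1014 and 980 were also called without it, and the difference was called in 391 (3.67%) and 501 (4.7%). Rises made up 53.4% of the calls. This split depended on the scaling, since the values as deposited gave 1095 rises and 1860 falls and an upper quartile scaling 1182 and 1833. Most changes were small. A log2 change of at least 0.6 was reached by 102 of the rises and 42 of the falls, and one of at least 1 by 23 rises and by 0 falls. The median change over all genes tested was 0.0038 in loaded cells and -0.0052 in control cells. Without loaded 24 h replicate 1 the calls in loaded cells came to 1724 and without replicate 3 to 1908. Without control 48 h replicate 2 the called differences came to 433.

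**Figure D2:**
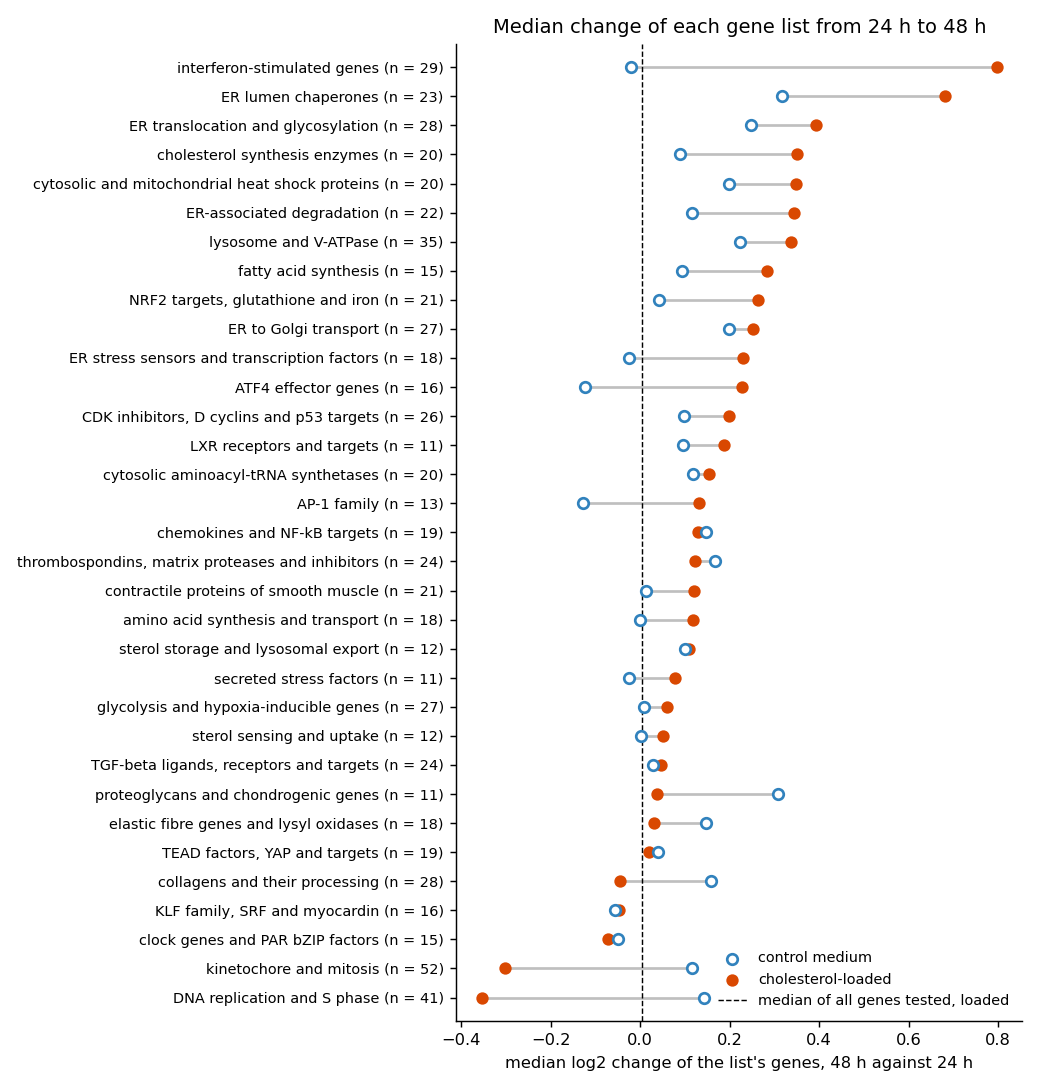
Median log2 change from 24 h to 48 h (x axis) of each gene list with at least 10 genes tested (y axis), in loaded cells (filled circles) and control cells (open circles), with the median of all genes tested as a dashed line. The ER lumen chaperones (0.68 loaded, 0.32 control) and the interferon-stimulated genes (0.80 and -0.02) lie farthest to the right in loaded cells, and the 2 cell cycle lists lie to the left in loaded cells and to the right in control cells.

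All 23 chaperones and folding enzymes of the ER lumen rose in loaded cells, with a median log2 change of 0.68, against 4 of 23 in control cells (21 at an unadjusted p under 0.05), with a median of 0.32. Their summed level went from 318 to 335 RPKM in the 3 loaded libraries at 24 h to 584 to 663 at 48 h, and from 315 to 326 to 437 and 445 in control cells. The difference was called for 8 of them, all positive, and for 13 with the density curve removed. In loaded cells the curve left 19 rises. Among genes of ER-associated degradation, 16 of 22 rose in loaded cells (median 0.34), and 13 with the density curve removed. In control cells 1 rose (7 at an unadjusted p under 0.05, median 0.12). A positive difference was called for 7. Without a single loaded or control library, the counts of rises were 18 to 22 and 14 to 17 in these lists and the counts of differences 6 to 8 and 5 to 8.

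The stretches of promoter that carry the ER stress response element are shown for 4 genes of these lists that rose and hold it, Derl3 having the largest change of the degradation list. The element is CCAAT, 9 bases and CCACG, and its second form (ERSE-II) is ATTGG, 1 base and CCACG. Both were searched on both strands from 250 bases before to 50 after the RefSeq start of a gene (assembly GRCm38.p6, the mm10 build of the files), where ATF6 and XBP1 are known to bind them with NF-Y. Letters of the motif are in capitals, the sequences are from RefSeq, and each is written 5′ to 3′ along the gene's own strand, all on the plus strand here: Derl3 at chr10:75893230-75893272, Creld2 at chr15:88819508-88819550, Hspa5 at chr2:34772013-34772055 and Herpud1 at chr8:94386365-94386399.
Derl3: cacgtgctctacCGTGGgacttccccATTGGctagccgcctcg
Creld2: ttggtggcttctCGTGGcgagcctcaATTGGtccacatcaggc
Hspa5: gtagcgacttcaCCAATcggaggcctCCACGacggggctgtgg
Herpud1: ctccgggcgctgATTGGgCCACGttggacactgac
In Derl3 and Creld2 the element lies in the reverse direction. Its first base is 156 bases before the start in Derl3, 126 in Creld2, 65 in Hspa5 and 52 in Herpud1 (the second form). The first form was found in 0.119% of all 32851 RefSeq promoters, in 14 of the 8291 genes tested that matched a promoter, and in 10 of 1234 rises and 3 of 1070 falls. Among ER lumen chaperones 7 of 19 held it (Hspa5, Hsp90b1, Calr, Canx, Pdia6, Dnajc3 and Creld2), and among genes of ER-associated degradation 2 of 15 (Derl3 and Syvn1). These are matches of letters and not measured sites.

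Derl3, a derlin that helps move misfolded proteins out of the ER, had the largest log2 change of the genes that the rule named (chr10:75893398-75895941). That rule took called genes with a mean of at least 1 RPKM over the 6 loaded libraries and no overlap of the loaded groups. By ratio of means Rtp4 was higher, at 18.7. Its RPKM was 0.588, 0.479 and 0.358 at 24 h and 8.44, 8.73 and 7.98 at 48 h in loaded cells, and 0.880, 0.571 and 1.28 at 24 h and 1.01 and 0.106 at 48 h in control cells. The loaded 48 h libraries lay far above all others and close to each other. The ratio of means was 17.6, the log2 change 2.67 (SE 0.18, limma adjusted p = 1.4e-06), and the difference from control cells 3.01 (SE 0.27, adjusted p = 6.2e-05). The 24 h values rest on 7 to 12 tags per library and those at 48 h on 71 to 111.

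Sdf2l1, a partner of ER-resident DnaJ proteins, measured 7.38, 7.66 and 8.98 at 24 h and 29.6, 24.0 and 25.6 at 48 h in loaded cells. Control cells measured 6.27, 5.69 and 6.47 at 24 h, then 7.30 and 9.03. The loaded groups did not overlap, at a log2 change of 1.60 (SE 0.091, adjusted p = 3.1e-07) and a difference of 1.25 (adjusted p = 0.00025, limma). Creld2, a secreted disulfide isomerase, went from 7.17, 7.93 and 7.77 to 22.3, 17.6 and 19.9, while control cells went from 6.64, 7.03 and 6.71 to 9.32 and 7.45. Its log2 change of 1.28 was 1.01 above that in control cells (adjusted p = 0.00058). Manf, another secreted ER stress protein, went from 14.8, 15.8 and 15.5 to 31, 30.5 and 34.8, at a log2 change of 1.01.

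Hspa5 (BiP), the main Hsp70 chaperone of the ER and a dense gene, had higher values at 48 h in both conditions. It measured 62.7, 66.7 and 67.3 at 24 h and 140, 135 and 161 at 48 h in loaded cells, and 53.8, 56.4 and 56.4 then 78.6 and 77.7 in control cells. Every 48 h library was above every 24 h library of its condition, at a log2 change of 1.13 (SE 0.13, adjusted p = 7.3e-05) in loaded cells and of 0.49 (adjusted p = 0.068) in control cells. The difference of 0.65 missed the threshold (adjusted p = 0.078) and passed it with the density curve removed (adjusted p = 1.9e-05). Hsp90b1 rose by 0.98 and Calr by 0.81, with differences of 0.44 and 0.19 that were not called. Less dense chaperones had called differences. Hyou1 went from 19, 20.4 and 19.2 to 38.6, 39 and 39.9 (difference 0.75, adjusted p = 0.0041), and Dnajb9, a DnaJ partner of BiP, from 9.35, 9.09 and 9.79 to 19.6, 20.6 and 21.5 (difference 0.84). Pdia4 had a difference of 0.69 and Dnajc3 one of 0.60.

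**Figure D3:**
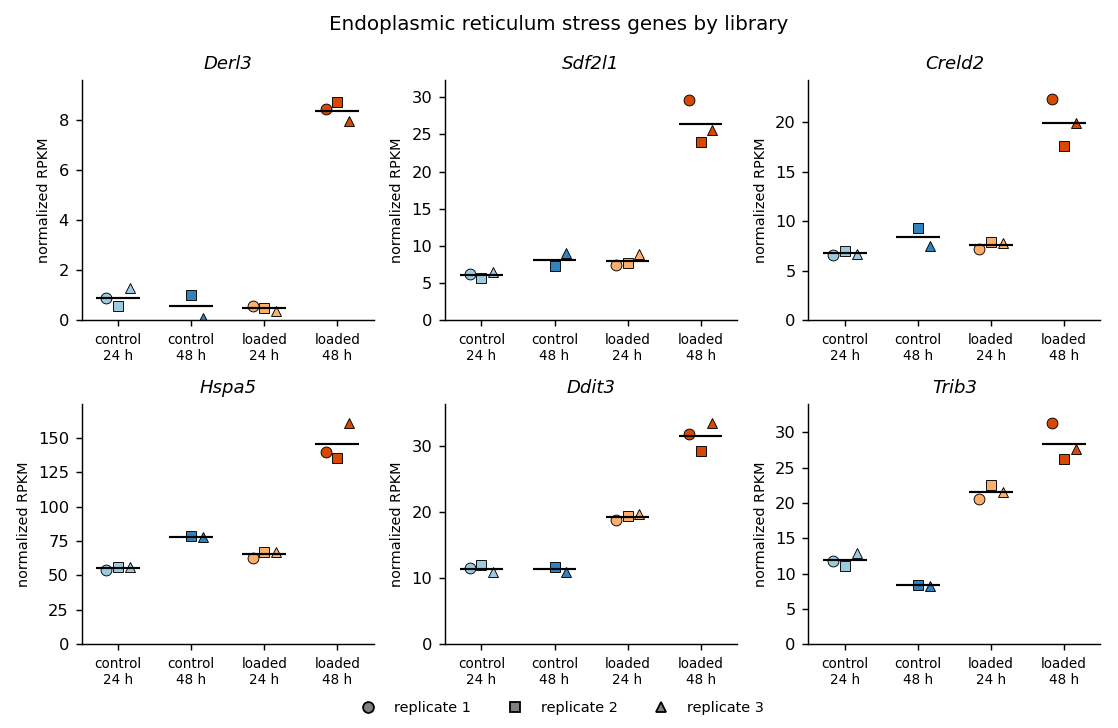
RPKM (y axis) of Derl3, Sdf2l1, Creld2, Hspa5, Ddit3 and Trib3 in each loaded and control library at 24 h and 48 h (x axis), with markers for replicates and a line at each mean. Derl3 goes from below 1 to about 8 in loaded cells only, whereas Hspa5 is higher at 48 h in control cells as well.

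In ER-associated degradation, Herpud1, which scaffolds the ubiquitin ligase complex, was at 12.4, 13.7 and 12.3 at 24 h and 22.9, 24.1 and 26.1 at 48 h. Control cells stayed at 9.50 to 9.74 and at 10.5 and 10.6, so the change of 0.88 (SE 0.064, adjusted p = 2.8e-06) exceeded theirs by 0.75 (adjusted p = 0.00056). Edem1, a mannosidase-like factor that commits glycoproteins to degradation, rose by 0.53 and its difference was 0.51 (adjusted p = 0.0015). Sel1l and the ligase Syvn1 (HRD1) rose by 0.62 and 0.55, and Derl1 by 0.60. Vcp, the ATPase that extracts the proteins on the cytosolic side, rose in both conditions, by 0.41 in loaded and 0.34 in control cells. Members without a called change were Edem3, Erlec1, Ube2j1, Faf2, Ngly1 and Rnf5.

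Genes of translocation, signal peptide removal and N-glycosylation rose in 27 of 28 cases in loaded cells (median 0.39) and in 6 in control cells (median 0.25, 19 at an unadjusted p under 0.05). The difference was called for Spcs2, Spcs3, Alg2 and Dpagt1 (2 genes without control 48 h replicate 2), and the density curve left 20 rises. Of 27 genes of ER to Golgi transport, 16 rose in loaded cells (9 without loaded 24 h replicate 1) and 1 in control cells. At an unadjusted p under 0.05 these counts were 20 and 16, and the medians were 0.25 and 0.20. The density curve left 10 rises in loaded cells. The difference was called for Sec23b alone, a coat subunit of export vesicles. Of 20 heat shock genes of the cytosol and mitochondria, 10 rose in loaded cells and 1 in control cells (10 at an unadjusted p under 0.05). In that list 2 had a called difference (Hspa1b and Dnajb4), of which Hspa1b shares its sequence with Hspa1a, so its reads are uncertain.

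In the PERK and ATF4 arm, CHOP and other stress factors rose in loaded cells, and Trib3 rose there while it fell in control cells. Of 18 sensors and transcription factors 10 rose, and 4 had positive differences, namely Ddit3, Ppp1r15a, Atf3 and Nfil3. Ddit3 (CHOP), the factor tied to cell death under ER stress, was at 18.9, 19.4 and 19.7 at 24 h and 31.9, 29.3 and 33.6 at 48 h. Control cells held 11.5, 12 and 10.9, then 11.7 and 11. The loaded groups were apart and the control groups overlapped (log2 change 0.68, SE 0.063, adjusted p = 1.3e-05, and difference 0.69, adjusted p = 0.00089). Ppp1r15a (GADD34), which ends the block of translation, went from 33.8, 38.3 and 36.4 to 57.9, 56.7 and 56.3, with a difference of 0.69. Atf3 went from 2.33, 2.49 and 2.37 to 4.63, 4.12 and 3.53, and its control libraries lay between 0.512 and 0.669 throughout. Atf4 itself rose by 0.55 (adjusted p = 0.013) with a difference of 0.32 that was not called, and Xbp1 by 0.35. The sensor genes Eif2ak3 (PERK) and Atf6 rose by 0.20 and 0.18, and Ern1 (IRE1) had a change of -0.01 that was not called. Leaving out single libraries gave 6 to 10 rises in this list, the fewest without loaded 24 h replicate 1 or loaded 48 h replicate 3.

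Among 16 ATF4 effector genes tested of 20 listed, 9 rose, 2 fell and 8 had positive differences, while in control cells 1 fell (7 at an unadjusted p under 0.05). Trib3, a pseudokinase induced by ATF4 and CHOP, measured 20.6, 22.6 and 21.5 at 24 h and 31.3, 26.2 and 27.6 at 48 h. In control cells it measured 11.8, 11.1 and 12.9, then 8.38 and 8.27. The direction was opposite in the 2 conditions (0.38, adjusted p = 0.0024, and -0.47, adjusted p = 0.01), with a difference of 0.85 (adjusted p = 0.00059). Slc7a3, a cationic amino acid transporter of the amino acid list, moved likewise, by 0.33 and -0.53. Chac1, which breaks down glutathione, went from 23, 26.2 and 23.5 to 28.4, 27.9 and 30.9 (difference 0.42, adjusted p = 0.034). Adm2, a secreted peptide listed with the stress factors, was not called in loaded cells, at 6.45, 6.74 and 7.31 then 8.95, 6.65 and 6.40, while control cells fell from 3.08, 3.18 and 3.38 to 1.15 and 1.48. The ATF4 effectors that fell were Ddit4 (-0.26) and Bbc3 (-0.24). Gdf15, a secreted stress cytokine, went from 53.9, 59.99 and 56.2 to 99.7, 88.6 and 94.1 (0.72, adjusted p = 0.0012), with a difference of 0.57 that was not called (adjusted p = 0.1). Of 20 cytosolic aminoacyl-tRNA synthetases 8 rose and the density curve left 2 rises, while limma called 0 differences (1 at an unadjusted p under 0.05). The rises among synthetases came to 4 without loaded 24 h replicate 1 or loaded 48 h replicate 3 and to 5 without loaded 24 h replicate 3. The differences of the ATF4 list came to 5 without loaded 24 h replicate 1 or 2 or control 24 h replicate 2, to 4 without control 48 h replicate 2 and to 3 with tags thinned to 1 depth.

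The core of the amino acid response element, TT, 1 base and CATCA, which ATF4 binds with a C/EBP partner, is shown in the Chac1 promoter at chr2:119351037-119351068 (plus strand, GRCm38.p6, RefSeq), with its first base 193 bases before the start and the motif in capitals.
Chac1: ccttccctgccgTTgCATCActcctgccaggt
On either strand the core was in 3.97% of all promoters and in 1.86% of those of tested genes. It was in 5 of 11 ATF4 effectors (Trib3, Chac1, Vldlr, Slc7a11 and Pck2) and in 5 of 12 tRNA synthetases. Of these effectors, Vldlr and Pck2 were not called in loaded cells, with changes of 0.14 and 0.0041.

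Of 29 interferon-stimulated genes tested of 35 listed, 28 rose in loaded cells and Irf1 was not called (0.30, adjusted p = 0.098). The median change was 0.80 in loaded cells and -0.02 in control cells, where limma called 0 in either direction and 1 gene was higher at an unadjusted p under 0.05. The loaded groups were apart for all 29. The libraries were not alike, however. The summed RPKM of the list was 89.1, 94.5 and 92.9 at 24 h and 314, 190 and 171 at 48 h in loaded cells, and 94.7, 135 and 98.1 then 113 and 131 in control cells. Loaded 48 h replicate 1 was the highest of its group in 27 of the 29 genes and replicate 3 the lowest in 25. Without loaded 48 h replicate 1 the median change in loaded cells was 0.53. Among control libraries, 24 h replicate 2 was the highest of its group in 27 genes, and 48 h replicate 3 the higher of its pair in 26. The libraries with high values thus occur in control cells too, at a lower level, and what sets them apart was not tested.

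Ifit1, an antiviral RNA-binding protein and one of the most inducible interferon genes, measured 0.724, 0.861 and 0.599 at 24 h and 19.2, 8.91 and 5.33 at 48 h. Control cells measured 0.476, 2.36 and 0.595, then 0.703 and 1.75. Every loaded 48 h library exceeded every other library (log2 change 2.65, SE 0.36, adjusted p = 0.0002, and difference 2.53, adjusted p = 0.012). Isg15, a ubiquitin-like modifier, measured 2.23, 1.84 and 2.52 then 41.5, 13.5 and 9.43, and control 24 h replicate 2 was at 10.9, above the lowest loaded 48 h library. Its change of 2.54 was called (adjusted p = 0.0064) and its difference was not (2.82, SE 0.87, adjusted p = 0.077). Irf7, the factor that amplifies interferon production, went from 1.23, 1.17 and 0.843 to 21.1, 7.91 and 4.14, with control 24 h replicate 2 at 4.34 (difference 2.45, adjusted p = 0.043). Rtp4 went from at most 0.220 to 6.52, 2.30 and 1.39.

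Ifit3 was the steadiest of the strong risers. It measured 5.67, 6.48 and 5.92 at 24 h and 29.5, 19.3 and 20.1 at 48 h, and control cells stayed between 6.03 and 8.53 (log2 change 1.75, SE 0.13, adjusted p = 4e-06, and difference 1.53, adjusted p = 0.00059). Its neighbour Ifit3b (1.44) is a near copy, so reads may be split between them, as also between Apol9b (1.41) and its paralog and between H2-K1 and H2-D1. Stat2, which carries the interferon signal, rose by 1.13, at a difference of 1.11 (adjusted p = 0.023). H2-K1, which presents antigen, rose from 11, 12.4 and 11.5 to 24.9, 19.4 and 19.8. Its light chain B2m rose by 0.59 in loaded and by 0.54 in control cells, the latter not called. The difference was called for 10 genes (Stat2, Irf7, Ifit1, Ifit2, Ifit3, Dhx58, Bst2, H2-K1, Rtp4 and Xaf1). The number of rises was 25 to 28 without any single library, 26 without loaded 48 h replicate 1. The number of differences was 22 without loaded 48 h replicate 3, 2 without control 48 h replicate 2 and 6 when control 24 h replicate 2 was left out and 5 when control 48 h replicate 3 or any 1 of the loaded 24 h libraries was left out.

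**Figure D4:**
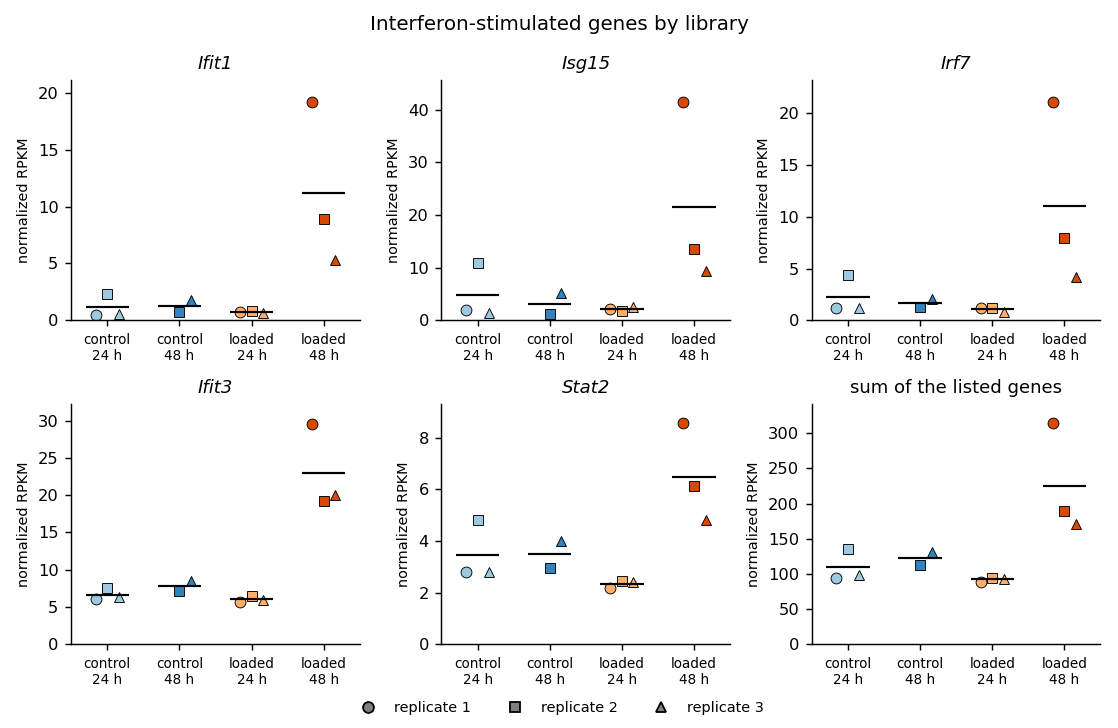
RPKM (y axis) of Ifit1, Isg15, Irf7, Ifit3 and Stat2 and the sum over the listed interferon-stimulated genes in each loaded and control library at 24 h and 48 h (x axis), with markers for replicates and a line at each mean. Loaded 48 h replicate 1 is the highest library in each panel, at 314 for the sum, and control 24 h replicate 2 stands above its group, at 135.

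The core of the interferon-stimulated response element, GAAA, 2 bases and GAAA, to which STAT2 and IRF9 bind in a complex, is shown in the promoters of 3 genes with large rises (RefSeq, GRCm38.p6, along the gene's strand, motif letters of either strand in capitals). They are Ifit1 at chr19:34640773-34640825 (plus strand), Ifit3 at chr19:34583361-34583428 (plus) and Isg15 at chr4:156200863-156200908 (minus).
Ifit1: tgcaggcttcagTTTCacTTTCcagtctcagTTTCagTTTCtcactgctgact
Ifit3: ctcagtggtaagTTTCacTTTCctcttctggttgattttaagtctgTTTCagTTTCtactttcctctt
Isg15: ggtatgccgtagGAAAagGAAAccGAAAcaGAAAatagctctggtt
The core occurred 104 and 85 bases before the start in Ifit1, 156 and 122 bases before it in Ifit3, and as 3 overlapping copies from 78 bases before it in Isg15. This motif was chosen after the values were seen. It was in 3.44% of all promoters and 2.80% of those of tested genes, and in 10 of 22 interferon-stimulated genes with a promoter.

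Sterol synthesis enzymes rose with time in loaded cells and still lay below control cells at 48 h. Of 20 tested 13 rose (median 0.35), against 1 rise in control cells (Sqle, median 0.09). The summed level was 56.8 to 60.3 at 24 h and 82.9 to 88.7 at 48 h in loaded cells, and 143 to 152 then 153 and 163 in control cells. The difference was positive for 7, among them Mvd, Fdps, Lss and Cyp51. Fdps, which makes farnesyl diphosphate, measured 3.23, 3.28 and 3.17 at 24 h and 7.20, 5.79 and 6.55 at 48 h. Control cells measured 8.81, 8.45 and 8.11, then 9.05 and 9.20. The loaded groups were apart, and both were below every control library (log2 change 0.83, SE 0.073, adjusted p = 9.9e-06, and difference 0.73, adjusted p = 0.0014). Mvd, which makes isopentenyl diphosphate, went from 3.96, 3.49 and 3.35 to 7.22, 6.27 and 6.54 (0.74, adjusted p = 2.4e-05), while control cells lay between 10.2 and 11. Its loaded groups were apart and below every control library as well. Lss, lanosterol synthase, rose by 0.50. Enzymes that act after lanosterol were divided. Cyp51, Msmo1, Ebp and Sc5d rose by 0.61, 0.69, 0.62 and 0.51, whereas Dhcr7, Hsd17b7 and Nsdhl, among the 7 enzymes not called, had changes of 0.12, 0.04 and 0.11. The differences numbered 5 to 9 without single libraries and 4 with tags thinned to 1 depth.

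Insig1, the ER protein that retains SREBP when sterol is high and is itself an SREBP target, had the largest change of the sterol genes. It measured 13.1, 13.9 and 13.3 at 24 h and 29, 27 and 30.5 at 48 h, passing the control libraries, which were 17.9 to 18.8 at 24 h, then 21.4 and 19.6 (log2 change 1.04, SE 0.095, adjusted p = 1.3e-05, and difference 0.89, adjusted p = 0.0021). Among LXR receptors and targets 5 of 11 rose (Nr1h2, Srebf1, Lpcat3, Smpdl3a and Apoe), Nr1h3 fell and limma called 0 differences, with 1 positive and 1 negative at an unadjusted p under 0.05 and 0 by voom. Their direction depended on scaling, with 4 rises and 3 falls under an upper quartile scaling and 2 and 1 under the density curve. Abca1, the main cholesterol efflux pump and an LXR target, measured 4.34, 4.22 and 4.18 at 24 h, then 3.79, 6.02 and 5.76. The groups overlapped and the change was not called (0.22, adjusted p = 0.13), while control cells were at 0.540 to 0.643. The low value is in loaded 48 h replicate 1, the library with lower values for long transcripts. Promoters of these lists were searched for the sterol regulatory element (SRE-1: ATCAC, 1 base and CCAC) as well. It was in 0 of 15 synthesis enzymes and 0 of 8 genes of sterol sensing and uptake, and in 13 of 8291 genes tested. The LXR element (AGGTCA, 4 bases and AGGTCA) was in 0 of 10 LXR receptors and targets, and in 0 of the 8291.

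Of 15 genes of fatty acid synthesis 9 rose and 2 fell (Acacb and Gpam), with 5 rises without loaded 24 h replicate 1 or loaded 48 h replicate 3. Scd1, the main desaturase, went from 16.1, 16.5 and 15.9 to 24.8, 26 and 27.2, passing control cells at 20.96 to 22.4 throughout (difference 0.62, adjusted p = 0.0033). Acss2, which makes acetyl-CoA from acetate, rose by 0.31 in loaded cells and fell by 0.25 in control cells. Among 12 genes of sterol storage and lysosomal export, Plin3, Lipa, Npc2 and Lamp2 rose (7 genes without loaded 48 h replicate 1), and the difference was called for Lipa, the lysosomal lipase (0.39, adjusted p = 0.023), and for Nceh1. Soat1, which esterifies cholesterol, and the droplet protein Plin2 had changes of 0.10 and 0.04 that were not called. Of 35 lysosomal and V-ATPase genes 25 rose (17 with the density curve removed) and Tfeb fell. In control cells 3 of them rose (21 at an unadjusted p under 0.05 in limma). Of all genes tested 14.8% rose in loaded cells, and 38.5% of those with more than 0.3 tags per exonic base. The rises came to 13 without loaded 24 h replicate 1 or loaded 48 h replicate 3, and to 16 without loaded 24 h replicate 3. The difference was called for Neu1, a sialidase (0.50, adjusted p = 0.0033), and the proton pump subunit Atp6v1b2 (0.34). Ctsd, the main aspartic protease, rose by 0.62 in loaded cells, with a change of 0.66 in control cells that was not called (adjusted p = 0.056).

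Cell cycle genes moved in opposite directions with time in the 2 conditions. Of 52 genes of the kinetochore and mitosis, 47 fell in loaded cells and 3 rose (Bub3, Zwint and Pttg1, with 1 rise left without any 1 loaded 24 h library, loaded 48 h replicate 2 or control 24 h replicate 1 or 2), at a median log2 change of -0.30, whereas in control cells 8 rose, at a median of 0.12. The difference was negative for 44. Of 41 genes of DNA replication and S phase tested, 36 fell (median -0.35), while 3 rose in control cells (Mcm7, Gins3 and Pcna, median 0.14), and 33 had a negative difference. With the density curve removed, 43 and 34 genes fell. The summed RPKM of the mitosis list was 135 to 140 at 24 h and 98.8 to 103 at 48 h in loaded cells, and 126 to 144 then 159 and 162 in control cells. That of the replication list went from 121 to 127 down to 84.1 to 96.8, and from 113 to 126 up to 136 and 146. Without loaded 48 h replicate 1 the falls were 46 and 35 and the differences 46 and 37. Over all single libraries left out, the differences were 29 to 46 and 27 to 37, the lowest 29 without control 48 h replicate 3.

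**Figure D5:**
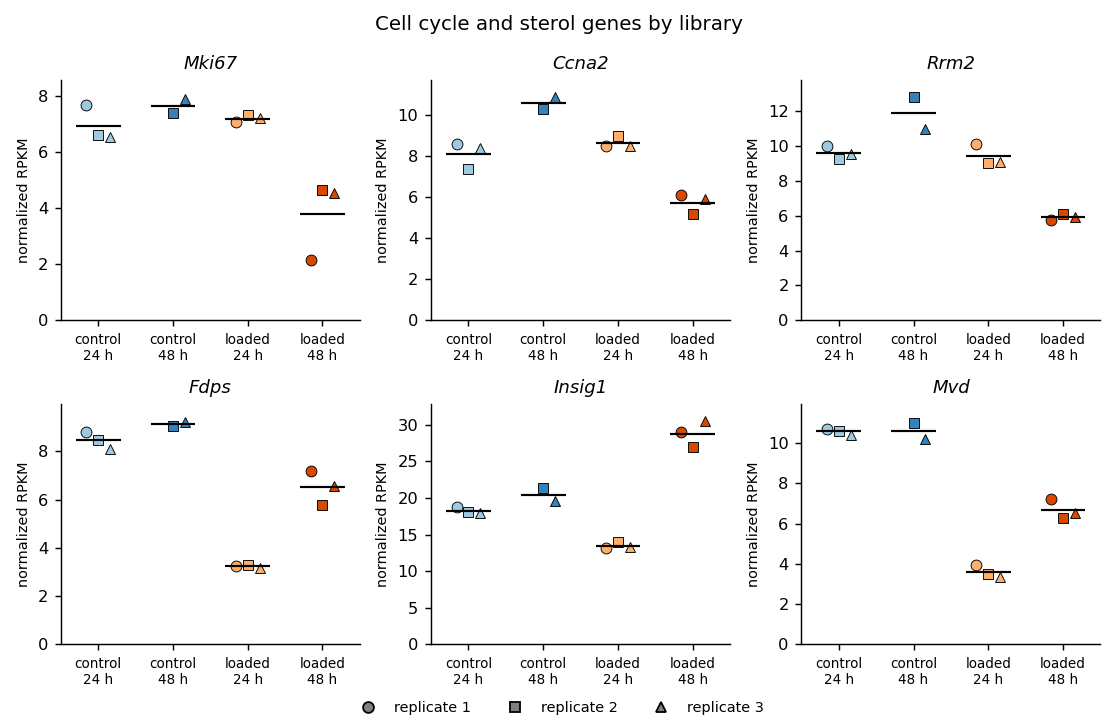
RPKM (y axis) of Mki67, Ccna2, Rrm2, Fdps, Insig1 and Mvd in each loaded and control library at 24 h and 48 h (x axis), with markers for replicates and a line at each mean. The 3 cell cycle genes are lower at 48 h in loaded cells only, and the 3 sterol genes are higher at 48 h in loaded cells, with Fdps and Mvd still below the control libraries.

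Ccna2 (cyclin A2), which drives S phase and entry into mitosis, measured 8.49, 8.96 and 8.48 at 24 h and 6.10, 5.17 and 5.93 at 48 h in loaded cells. Control cells measured 8.58, 7.37 and 8.39, then 10.3 and 10.9. The groups were apart in both conditions and the directions opposite (log2 change -0.52, SE 0.066, adjusted p = 0.00012, and difference -0.87). Mki67, the marker of cycling cells, was at 7.05, 7.30 and 7.20 at 24 h and 2.16, 4.64 and 4.54 at 48 h, with control libraries at 6.52 to 7.87. The lowest value is again that of loaded 48 h replicate 1, in a long transcript, and the other loaded 48 h libraries were still below every other library shown (log2 change -0.82, SE 0.16, adjusted p = 0.0024, and difference -0.95, adjusted p = 0.031). Foxm1, a transcription factor of the late cycle, went from 9.29, 10.6 and 10.2 to 4.84, 6.54 and 5.81. Top2a, which untangles DNA, fell by 0.35 while control cells rose by 0.48. Pttg1 (securin) went against the list, from 4.54, 4.51 and 4.97 to 7.39, 6.17 and 6.03.

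In replication, Rrm2, the subunit of ribonucleotide reductase made in S phase, measured 10.1, 9.01 and 9.05 at 24 h and 5.74, 6.11 and 5.92 at 48 h. Control cells measured 9.99, 9.24 and 9.53, then 12.8 and 11. The loaded groups were apart (log2 change -0.59, SE 0.070), and the difference was -0.86. Pole, the leading strand polymerase, went from 1.51, 1.56 and 1.44 to 0.605, 0.730 and 0.727 (-0.57, adjusted p = 4.3e-06), Mcm5 of the helicase fell by 0.58 and Uhrf1 by 0.59. Pcna, the sliding clamp, stayed at 5.73, 5.597 and 5.58 then 5.76, 5.31 and 5.80 in loaded cells and rose by 0.49 in control cells. Among 26 CDK inhibitors, D cyclins and p53 targets 11 rose and 1 fell in loaded cells (7 rises without loaded 24 h replicate 1 or 3 or loaded 48 h replicate 3). In control cells 3 rose and 1 fell, and with the density curve removed 7 rose and 3 fell in loaded cells. The difference was called for Cdkn2b, an inhibitor of CDK4 and CDK6 (0.52, adjusted p = 0.011), and Gadd45a, a stress-induced growth arrest gene. Gadd45a went from 29.2, 28.4 and 28.9 to 39.2, 34.9 and 39.1 in loaded cells and from 17.8, 17.4 and 17.4 to 13 and 13.1 in control cells (difference 0.78, adjusted p = 0.00043). Cdkn1a (p21) rose by 0.49, and neither its change of 0.36 in control cells nor the difference of 0.13 was called.

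The core of the cell cycle genes homology region, TTTGAA, where the DREAM and MuvB complexes bind, is shown in promoters of the mitosis list (RefSeq, GRCm38.p6, minus strand genes, written along the gene): Cdk1 at chr10:69352913-69352995, Mki67 at chr7:135716460-135716507 and Ccnb2 at chr9:70421704-70421733. Motif letters are in capitals.
Cdk1: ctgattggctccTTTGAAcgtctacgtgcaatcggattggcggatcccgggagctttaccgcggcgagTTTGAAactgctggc
Mki67: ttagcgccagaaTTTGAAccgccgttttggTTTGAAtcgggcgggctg
Ccnb2: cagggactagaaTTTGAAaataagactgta
The core lies 71 and 15 bases before the start in Cdk1, 116 and 98 in Mki67 and 167 in Ccnb2. Being short, it was in 17.9% of all promoters on either strand and in 11.2% of those of tested genes, in 14.6% of falls and 10.5% of rises. Of the mitosis list 27 of 40 promoters held it, and of the replication list 3 of 33.

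Contractile genes showed few calls, and their share of falls was near that over all genes tested (12.9%, with 14.8% for rises). Of 21 tested Acta2 rose and Myh11, Synpo2 and Itga1 fell (5 rises without loaded 48 h replicate 1), and with the density curve removed 2 rose and 9 fell. Acta2 (smooth muscle actin) went from 27.4, 28.4 and 29 to 38.2, 37.4 and 45.5 (0.49, adjusted p = 0.028), and control cells from 32, 34.4 and 34.5 to 43.7 and 44.6. Both conditions were higher at 48 h, and the difference of 0.11 was not called. Myh11 (smooth muscle myosin) went from 2.51, 2.57 and 2.55 to 1.54, 1.72 and 1.77 (-0.40, adjusted p = 0.00029), and control cells from 3.42, 3.78 and 3.64 to 3.15 and 2.91, at a difference of -0.21 that was not called. Lgals3, a galectin of macrophages and of modulated smooth muscle cells, went from 6.77, 7.24 and 6.91 to 10.1, 10.1 and 11, while control cells stayed at 3.95 to 4.45 (difference 0.55, adjusted p = 0.01). Klf4, a factor of the phenotypic switch, rose by 0.30 with no called difference (0.20). It had the highest change of the 16 genes of the KLF family, SRF and myocardin, of which 2 rose and 4 fell, at a median of -0.046. Leaving out single libraries gave 2 to 6 falls in that list, and 0 rises without loaded 24 h replicate 1 or 3 or loaded 48 h replicate 3.

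Matrix genes moved less uniformly. Over all genes tested 14.8% rose and 12.9% fell in loaded cells, and the small counts below are to be read against those shares. Of 28 collagens and their processing enzymes 3 rose and 6 fell, with 2 and 17 under the density curve, and the difference was negative for 4 (Col3a1, Col8a1, Col18a1 and P4ha3). Without loaded 24 h replicate 1 no collagen gene rose, without loaded 48 h replicate 3 1 did, without loaded 24 h replicate 3 the falls came to 3, and without control 48 h replicate 2 the negative differences came to 1. Col3a1 stayed at 8.89, 9.14 and 8.72 then 8.90, 7.43 and 8.57 in loaded cells and rose from 11.2, 13 and 12.5 to 17.4 and 17.1 in control cells (difference -0.56, adjusted p = 0.02). Among 11 proteoglycans and chondrogenic genes tested Fmod rose and Acan, Vcan and Sox9 fell. Sox9, the chondrogenic master factor, went from 41.3, 46.8 and 43.1 to 32.1, 34.5 and 33.3, whereas control cells went from between 46 and 47.9 to 58.7 and 61.4 (log2 change -0.38, SE 0.095, adjusted p = 0.011, and difference -0.73, adjusted p = 0.0077). Acan (aggrecan), a Sox9 target in cartilage, went from 3.92, 4.28 and 4.15 to 1.73, 2.51 and 2.37, at a difference of -0.60 (adjusted p = 0.02). Of the elastic fibre genes 1 of 18 rose (Lox, which also rose in control cells) and 3 fell, and 0 and 9 under the density curve. No gene of that list rose when any 24 h or 48 h library other than loaded 48 h replicate 1 was left out, and the falls came to 1 without loaded 24 h replicate 2.

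Genes of the oxidative stress response rose in part. For this and the next lists, the shares over all genes tested in loaded cells were 14.8% for rises and 12.9% for falls. Of 21 NRF2, glutathione and iron genes tested 12 rose, and Gclm, Slc7a11, Srxn1 and Chac1 had positive differences. Without loaded 24 h replicate 2 or 3, or without control 24 h replicate 3 or either control 48 h library, those differences came to 2. Srxn1 (sulfiredoxin) went from 17, 17.8 and 17.6 to 30.4, 28.3 and 30.7, with control cells at 12.5 to 13.9 and 15.1 and 15.2 (difference 0.54, adjusted p = 0.0033). Hmox1 (heme oxygenase 1) rose by 0.79 at a difference of 0.47 that was not called (adjusted p = 0.098, and 0.00038 under the density curve). Of 13 genes of the AP-1 family list, which holds other early response genes too, 4 rose in loaded cells (2 without loaded 24 h replicate 1). They were Jund, Atf2, Egr1 and Ier3, and the difference was called for Egr1 (0.80) and Ier3 (0.73). Of 19 chemokines and NF-kB targets tested 6 rose, and Cx3cl1 (fractalkine) fell from 7.53, 8.17 and 7.60 to 5.57, 5.81 and 5.30, against 10.1 to 11.3 and then 12.6 and 11.8 in control cells (difference -0.57, adjusted p = 0.0017). Of 27 glycolytic and hypoxia-inducible genes 8 rose and 4 fell in loaded cells, at a median of 0.06. The rises came to 4 without loaded 24 h replicate 1 or 3 or loaded 48 h replicate 3 and to 5 without loaded 24 h replicate 2, and the falls to 1 without loaded 24 h replicate 1. Hk2 and Eno2 rose by 0.25 and 0.38 with differences of 0.47 and 0.53, while Aldoa rose by 0.60, with a change of 0.55 in control cells that was not called.

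Outside these lists, the rule for the largest changes named Slc2a6, a glucose transporter family member of the lysosome (chr2:27021367-27027998). It measured 2.76, 3.14 and 2.98 at 24 h and 11.02, 11.6 and 9.70 at 48 h, while control cells went from 4.51, 3.94 and 4.09 to 3.67 and 2.98. Loaded cells lay below control cells at 24 h and above them at 48 h, in every library, with a log2 change of 1.57 (SE 0.076) and a difference of 1.83 (SE 0.11, adjusted p = 2.4e-06), the smallest adjusted p of the named differences. Kctd12, an auxiliary subunit of GABA-B receptors, went from 3.17, 3.15 and 3.74 to 9.87, 8.90 and 10.6, with a difference of 0.94 (adjusted p = 0.019).

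The 12 largest falls reached from -0.73 to -0.89. Ankle1, an endonuclease, fell from 3.41, 2.60 and 2.84 to 0.982, 1.047 and 1.39, with control libraries at 1.79 to 2.43 (log2 change -0.89, difference -0.99, adjusted p = 0.0014). Tcf19, a factor of the G1 to S transition, went from 9.35, 10.0 and 10.6 to 5.30, 4.90 and 5.31, while control cells went from 11.7, 9.30 and 10.5 to 13.1 and 13.4. The groups were apart in both conditions, in opposite directions, at a difference of -1.15 (SE 0.11, adjusted p = 0.00012). Nrm, a nuclear envelope protein, and Mxd3, a MYC network factor, had differences of -0.89 and -0.77. Peg10, a retrotransposon-derived imprinted gene, fell in both conditions (-0.78 and -0.47, difference -0.31, adjusted p = 0.11). Pnck (-0.80) and Cpxm1 (-0.76) also had no called difference. Rassf4 (-0.84), Lrrc75b (-0.78) and Nat8l (-0.74) had differences of -0.50, -0.70 and -0.55. All 26 genes that the rule named kept their direction and call for loading time in the 659 alternatives run for them.

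Chromatin was measured in 1 H3K27ac ChIP-seq library per condition, a mark of active promoters and enhancers, so these values have no replicate check. Regions numbered 50566 at 24 h and 49153 at 48 h in loaded cells, and 53053 and 49500 in control cells, from 24493216, 16532230, 24609788 and 18691300 tags. The share of tags in regions was 43.8% and 37.4% in loaded cells and 40.5% and 39.96% in control cells, so the 48 h loaded library held less signal in its regions. Of all genes tested, 91.7% had a region within 1 kb of their start at 24 h and 87.9% at 48 h in loaded cells, and 91.3% and 89.7% in control cells. Genes that rose had one in 94.3% and 91.6%, and genes that fell in 85.0% and 80.1%. Over genes with a region at both times in loaded cells, the ratio of signal per kb between 48 h and 24 h had a median of 0.942. It was 0.930 over rises, 0.953 over falls, 0.960 over ER lumen chaperones and 0.913 over interferon-stimulated genes. In control cells these medians were 1.02, 1.03, 1.01, 0.994 and 0.916. The mitosis list had a median of 0.845 in loaded cells (30 of 52 genes) and 1.03 in control cells (33). The replication list had 1.02 (24 of 41 genes) and 0.988 (26). In loaded cells 75% then 65.4% of the mitosis list had a region, and 78.05% then 65.85% of the replication list. Control cells had 76.9% then 73.1%, and 78.05% then 70.7%. Isg15 had 19.2 tags per kb at 24 h and 39.1 at 48 h, against 27.3 and 27.04 in control cells. Other strong risers of that list had no such gain, with 46.4 and 41.6 for Irf7, 29.8 and 26.4 for Ifit3 and 21.1 and 20.6 for Rtp4 in loaded cells, and no region for Ifit1 at either time. Derl3, whose RNA had the largest log2 change of the named genes, had no region within 1 kb of its start in any of the 4 libraries.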

How the data were processed

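Poly-A RNA was sequenced in 14 libraries of cultured mouse VSMCs. The authors aligned reads with STAR to mm10 and counted tags with HOMER (their versions are not given in the sources used here), and the RNA table holds their RPKM over RefSeq gene bodies with at most 1 tag per base position, as its deposited name was read. H3K27ac regions were called by the authors with HOMER findPeaks against input after Bowtie2 alignment, and the signal used is each region's tags after scaling all libraries to 1 total, per the file headers.

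Of several rows for a gene, that of highest mean RPKM was used (24453 genes in 35756 rows, 1045 without a gene name). Dividing deposited values by the worth of 1 tag gave whole numbers (tolerance 0.25 tag) in 100% of those tested, and the recovered tags gave the depth and the filter (more than 70 tags in at least 1 library). Values were rescaled by the median of ratios and tested as log2(RPKM + 1) with limma 3.58.1 in R 4.3.3, with all 14 libraries, 1 mean per group, eBayes with trend, two-sided tests and Benjamini-Hochberg adjustment at 0.05. Smoothing for the density curve used a span of 0.3 and the 10663 genes with an exonic length. Groups share 1 estimate of spread. A count test was not the main test because the table holds RPKM. Tests were checked on simulated counts with the same dispersion in every gene and group. Those counts held neither the length deviations nor the density effect described above, so the check does not cover them.

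Genes named outside the lists were the 12 largest rises and the 12 largest falls in called genes averaging at least 1 RPKM over the 6 loaded libraries and no overlap of the loaded groups, and the 6 largest positive and 6 largest negative called differences. The 36 lists and this rule were chosen with earlier results of these data known, so they are not independent of them. Alternatives were another pseudocount, filter, scaling, row choice, set of libraries, weights, voom, thinned tags, a replicate block and each 24 h or 48 h library left out. The control libraries at 0 h were left out only together. That gave 3623 calls for loading time, 1849 for time in control medium and 775 for their difference. Promoters came from RefSeq (GRCm38.p6), 8291 of the tested genes matched by symbol. Figures and tables were made in Python 3.11 with numpy 2.4.6, pandas 2.3.3 and matplotlib 3.10.9. The single-cell data of the study and the authors' lists of differential genes were not used here. Values of some genes are not reported here.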

Additional observations from a re-analysis of the deposited data

Results flagged for a closer look

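The change from 24 h to 48 h differed between loaded and control cells in 685 genes (6.36% of those tested) at an adjusted p of 0.05. The test was limma, with 3 control libraries at 24 h and 2 at 48 h. Of the 26 named genes 20 are among them. This count is partly set by the rule, which named 6 positive and 6 negative differences because they were called. In the ER, the difference of log2 changes (loaded minus control) was 3.013 for Derl3, 1.249 for Sdf2l1 and 1.014 for Creld2. Among interferon-stimulated genes it was 2.53 for Ifit1, 2.446 for Irf7, 1.958 for Rtp4, 1.529 for Ifit3 and 1.299 for its near copy Ifit3b. It was 1.831 for the transporter Slc2a6 and 0.9393 for Kctd12. Genes of the cell cycle and nucleus had negative differences of -1.149 for Tcf19, -0.9913 for Ankle1, -0.9485 for Mki67, -0.8921 for Nrm and -0.7688 for Mxd3. Further negative differences, listed without regard to function, were -0.971 for 2810417H13Rik, -0.8709 for 4930427A07Rik, -0.6959 for Lrrc75b, -0.5472 for Nat8l and -0.5026 for Rassf4.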

How the results depend on the processing

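The counts of calls were 2981 for loading time, 557 for time in control medium and 685 for their difference. With array weights they rose to 5240, 2609 and 1491, and with tags thinned to the smallest library they fell to 1978, 111 and 371. Among genes under 0.1 tags per exonic base they were 799, 174 and 268, from fewer genes tested (an alternative chosen after seeing the data, like the density curve). In control medium alone, the count moved to 323 with no filter on low values, 1849 with only the 4 groups of 24 h and 48 h in the fit, and 846 with voom. The causes were not tested. All other planned settings kept the counts within 1.5 times. Leaving out 1 library gave 1724 to 3337, 38 to 1180 and 433 to 886. Without loaded 24 h replicates 1 and 3, loading time gave 1724 and 1908, and without control 48 h replicate 2 the difference gave 433. For control medium, leaving out control 24 h replicates 1, 2 and 3 gave 149, 117 and 110. Control 48 h replicates 2 and 3 gave 123 and 38, loaded 24 h replicates 1, 2 and 3 gave 272, 291 and 267, and loaded 48 h replicate 1 gave 1180. With 1 control library left at 48 h, that library is assumed to vary like the other groups. The samples were treated as unpaired. Same-numbered loaded libraries had correlations of deviations of -0.16, -0.189 and 0.0739, and differently numbered ones of -0.0612 to 0.224. Deviations from a mean of 3 libraries cannot decide whether same-numbered libraries shared a culture. The replicate block gave 2748, 417 and 576 calls. Of 1872 recomputed counts over the lists, 1616 stayed within 1.5 times and 256 moved. The median change of the interferon-stimulated genes, 0.80 on the log2(RPKM + 1) scale, was 1.47 with voom on tags, 1.37 with a pseudocount of 0.1 and 0.46 with array weights. Depth limits genes with few tags at 48 h, and in genes of high tag density time and depth cannot be told apart within 1 condition.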

Other observations

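Among 24 tested TGF-beta ligands, receptors and targets, 7 rose and 1 fell from 24 h to 48 h in loaded cells, while 2 rose and 2 fell in control cells. Ctgf, a matricellular protein that is also a YAP and TEAD target, measured 122, 134 and 131 RPKM at 24 h and 193, 191 and 220 at 48 h in loaded cells. In control cells it measured 130, 139 and 138, then 199 and 206. Both conditions thus had higher values at 48 h, and the difference of log2 changes was 0.06 (limma adjusted p = 0.96). Of 19 TEAD factors, YAP and their targets, 4 rose and 5 fell in loaded cells, where 14.8% of all genes tested rose and 12.9% fell. In that list limma called 0 in control cells (4 higher and 3 lower at an unadjusted p under 0.05). It also called 0 differences (1 negative at an unadjusted p under 0.05). Without any 1 loaded library the rises of that list came to 1 or 2, and the falls to 2 without loaded 24 h replicate 2 and to 3 without loaded 24 h replicate 1 or loaded 48 h replicate 1 or 3. Plaur, the urokinase receptor, rose by 0.34 in loaded cells and fell by 0.32 in control cells, a difference of 0.66 (limma adjusted p = 0.0024). Thbs2, a thrombospondin, fell from 2.98, 2.78 and 2.86 RPKM to 1.92, 2.11 and 2.14 in loaded cells, against 5.32 to 6.56 in control cells (difference -0.46, limma adjusted p = 0.0049).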
